A study of Mus musculus with 18 samples.

Results

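The values of 9 genes of fatty acid binding, oxidation and synthesis were read in mouse lung: Fabp1, Fabp4, Fabp5, Acoxl, Acaa1b, Acly, Fasn, Scd1 and Scd2. They were chosen by name, and every probe set whose annotation names one of them alone was used, which gave 22 of 45037 probe sets, of which 19 lay above the low-signal filter. All 9 genes were among the 12412 genes tested. The genes were put together because of how irradiated and control arrays of these same samples differed. Their differences between irradiated and control lung are therefore given as descriptions with no test.

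The inbred mouse strains were C3H/HeJ, A/J and C57BL/6J, the last written C57BL6/J in the labels, and each had 3 arrays of untreated mice aged 15 to 26 weeks and 3 arrays of irradiated mice, all from right lung RNA. Irradiated mice received 18 Gy from a caesium source to the whole thorax at 8 weeks of age, behind lead that let 3% of the beam through elsewhere, and were killed when moribund. At that point A/J mice were 30 to 32 weeks old (22 to 24 weeks after exposure), C57BL/6J mice 28 to 30 (20 to 22 weeks) and C3H/HeJ mice 20 to 22 (12 to 14 weeks). Irradiation, time since exposure and moribund state cannot be told apart in these groups, nor can age in A/J and C57BL/6J.

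Fatty acids that enter a cell are carried through its water phase by small fatty acid binding proteins, of which Fabp1 is the liver form, Fabp4 the form of adipocytes and macrophages, and Fabp5 the epidermal form. Peroxisomes and mitochondria shorten fatty acids by cycles of oxidation, in which acyl-CoA oxidases start the peroxisomal cycle and thiolases such as Acaa1b end it; Acoxl is a relative of those oxidases by sequence. New fatty acids are built from citrate through ATP citrate lyase (Acly) and fatty acid synthase (Fasn), and the stearoyl-CoA desaturases Scd1 and Scd2 add a double bond. In lung this synthesis serves the alveolar type 2 cell, which assembles the lipids of surfactant.

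The promoter windows of the 3 genes with the largest differences between irradiated and control lung, Acoxl, Acaa1b and Fabp1, show what sequence lies ahead of each. RefSeq windows (build GRCm38.p6) were matched for 5 of the 9 genes, which were Acoxl, Acaa1b, Fabp1, Fasn and Acly. Each is printed 5′ to 3′ on the gene's strand and holds the 250 bases before the annotated start, at chr2:127854378-127854627 on the plus strand for Acoxl, chr9:119157094-119157343 on the minus strand for Acaa1b and chr6:71199629-71199878 on the plus strand for Fabp1. Capitals mark matches, on either strand, to 5 short motifs: AGGTCA (a half-site of the PPAR response element), TCACNCCAC (a sterol response element), CCAAT (the box of that name), CACGTG (an E-box) and GTTAAT (an HNF1 half-site).
Acoxl: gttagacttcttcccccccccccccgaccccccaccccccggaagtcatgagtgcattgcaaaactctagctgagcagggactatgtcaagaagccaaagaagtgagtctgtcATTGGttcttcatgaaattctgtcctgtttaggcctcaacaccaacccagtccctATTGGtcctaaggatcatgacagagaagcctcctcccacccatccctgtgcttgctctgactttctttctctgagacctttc
Acaa1b: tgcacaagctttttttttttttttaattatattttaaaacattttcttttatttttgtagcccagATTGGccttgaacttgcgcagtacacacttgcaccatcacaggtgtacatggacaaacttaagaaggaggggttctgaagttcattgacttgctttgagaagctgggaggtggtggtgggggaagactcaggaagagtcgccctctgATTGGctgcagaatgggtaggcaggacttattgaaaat
Fabp1: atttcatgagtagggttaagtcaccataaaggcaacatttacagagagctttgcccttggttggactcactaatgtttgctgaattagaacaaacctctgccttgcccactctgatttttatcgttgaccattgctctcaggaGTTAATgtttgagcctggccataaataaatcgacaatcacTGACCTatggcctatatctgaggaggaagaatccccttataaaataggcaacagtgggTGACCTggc
The Acoxl window held CCAAT on the opposite strand (read here as ATTGG) 137 to 133 and 82 to 78 bases before the start. The Acaa1b window held it at 185 to 181 and 38 to 34 bases. The Acoxl window lies inside the gene's own RefSeq span (chr2:127838797-128126252), so that a transcript with an earlier start is annotated. Neither the Acoxl nor the Acaa1b window had a match to the other 4 motifs. The Fabp1 window held AGGTCA on the opposite strand (read as TGACCT) at 67 to 62 and 9 to 4 bases before the start, and GTTAAT at 107 to 102 bases. Among the windows not printed, Fasn held CCAAT 3 times, of which the matches at 62 to 58 and 59 to 55 bases overlap, and Acly held AGGTCA once. Of all 32851 RefSeq windows of this length, 33.8% held CCAAT, 14% AGGTCA, 6.43% GTTAAT, 6.02% CACGTG and 1.05% TCACNCCAC. A match is a description of the letters, and no binding was measured.

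Arrays differed in brightness, with a trimmed mean signal from 46.3 to 176, and values below are log2(signal + 7) after quantile normalization unless a signal is named. Irradiated A/J arrays had a lower ratio of 5′ to 3′ actin probe sets (0.413 to 0.551) than A/J controls (0.730 to 0.742). The lowest was array 1, whose Gapdh ratio was 0.294, against 0.876 and 1.03 in irradiated A/J arrays 2 and 3. A/J controls had Gapdh ratios of 1.14 to 1.30. Genes of squamous epithelium, which is not lung tissue, reached a summed normalized signal of 5365 and 5971 in C57BL/6J control arrays 1 and 3 and 3634 in irradiated A/J array 3, against 104 to 286 in the other arrays. Irradiated C3H/HeJ array 3 lay between the C3H/HeJ and A/J controls at 15 probe sets that separate these strains, at 0.56 of the way against 0.01 and 0.03 for the other irradiated arrays of its group. The lung markers Sftpc and Scgb1a1 were near the top of every array, at 12.78 to 13.01 and 13.01 to 13.19. The labels do not say that the control samples came from separate mice, so that p-values may measure technical spread there.

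Fabp1, the liver-type binding protein, was lower in all irradiated A/J and C3H/HeJ arrays. Its probe set 1448764_a_at read 7.81, 8.25 and 8.05 in A/J controls and 4.43, 4.49 and 4.96 in irradiated A/J. The C3H/HeJ controls read 7.02, 8.31 and 7.93 and the irradiated arrays 5.42, 4.78 and 5.40. In C57BL/6J the controls read 7.31, 5.80 and 6.46 and the irradiated arrays 3.80, 6.05 and 5.34. Groups were apart in A/J and C3H/HeJ, while in C57BL/6J the irradiated array 2 lay above control array 2, and array 1 was the lowest of all 18. The differences (irradiated minus control, log2, ± SE, n = 3 against 3) were −3.41 ± 0.48 in A/J (10.6-fold), −2.55 ± 0.48 in C3H/HeJ (5.86-fold) and −1.46 ± 0.48 in C57BL/6J (2.75-fold). Here and below the SE rests on a spread shared by all 6 groups, so it is alike in each strain whatever the strain's own spread. Deposited signals were 223.4 to 290.3 in A/J controls and 19.2 to 22.6 in irradiated A/J. Without the 3 arrays of high squamous signal, which leaves only control array 2 of untreated C57BL/6J, the C57BL/6J difference was −0.74.

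The other Fabp1 probe set, 1417556_at, had groups that did not overlap in any strain. Its differences, each ± 0.34, were −2.90 in C3H/HeJ, −2.68 in A/J and −1.11 in C57BL/6J. None of the 8 hepatocyte genes listed passed the low-signal filter. Albumin, the main product of hepatocytes, read at most 4.85 in any array, below the overall median of 4.98.

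Fabp4, the adipocyte and macrophage form, differed by 0.22 to 0.61 between irradiated and control lung at the probe set that stands for it. The SE of 0.40 is shared by all groups, while the SD of single groups ran from 0.07 in irradiated C57BL/6J to 1.04 in irradiated A/J. Probe set 1417023_a_at read 9.49, 9.31 and 10.26 in A/J controls and 8.88, 10.71 and 10.66 in irradiated A/J. In C57BL/6J it read 9.25, 9.08 and 9.21 in controls and 9.31, 9.42 and 9.46 in irradiated arrays. In C3H/HeJ it read 8.70, 9.34 and 9.74 and then 9.56, 9.65 and 10.41. Arrays overlapped in A/J and C3H/HeJ, and in C57BL/6J they were apart by a narrow gap. The differences, each ± 0.40, were 0.61 in C3H/HeJ, 0.40 in A/J and 0.22 in C57BL/6J. Irradiated A/J array 1 was the lowest of its strain, and without it the A/J difference was 1.00 ± 0.31. Without irradiated A/J array 2 it was 0.08 ± 0.43, and with 1 array left out the C3H/HeJ difference ran from 0.33 to 0.85. Probe set 1424155_at, below the overall median of the arrays in controls, read 3.76, 4.14 and 3.59 in A/J controls and 5.12, 6.01 and 6.05 in irradiated A/J, which were apart. Its differences, each ± 0.37, were 1.90 in A/J, 1.07 in C3H/HeJ and −0.05 in C57BL/6J, and the arrays overlapped in the last 2 strains. Probe set 1425809_at was also apart in A/J (1.11 ± 0.30, against 0.60 and −0.03 in C57BL/6J and C3H/HeJ), while 1451263_a_at was not (−0.06 ± 0.49, against 0.09 and 0.54). Probe sets 1424155_at and 1425809_at were above the overall median in 4 arrays each, all of them irradiated. They passed the low-signal filter only through those arrays, so nothing is read from their differences.

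Fabp5, the epidermal form, was higher after irradiation in C3H/HeJ, where the groups did not overlap. Its probe set 1416021_a_at read 9.89, 10.37 and 10.42 in C3H/HeJ controls and 11.10, 10.99 and 11.35 in irradiated C3H/HeJ. In A/J it read 10.55, 10.43 and 10.59 and then 10.17, 10.95 and 11.47. The C57BL/6J arrays read 11.38, 10.76 and 11.39 in controls and 11.32, 10.88 and 10.78 after irradiation. Irradiated A/J arrays spread to both sides of their controls, and the C57BL/6J groups overlapped. The differences were 0.91 ± 0.27 in C3H/HeJ (1.88-fold), 0.34 ± 0.27 in A/J and −0.19 ± 0.27 in C57BL/6J. Probe set 1416022_at gave 1.06, 0.42 and −0.20 in the same order, each ± 0.36. Fabp5 is abundant in keratinocytes. Its highest control arrays, C57BL/6J 1 and 3, had squamous signal, as had its highest irradiated array, A/J 3. Irradiated C57BL/6J array 1 (11.32) and C3H/HeJ array 3 (11.35) read close to these, with summed squamous signals of 141 and 232. The part of squamous tissue in the Fabp5 values was not tested. Without the 3 arrays of high squamous signal the difference was 0.03 ± 0.23 in A/J. In C57BL/6J, with only control array 2 left, the difference was 0.23.

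**Figure D1:**
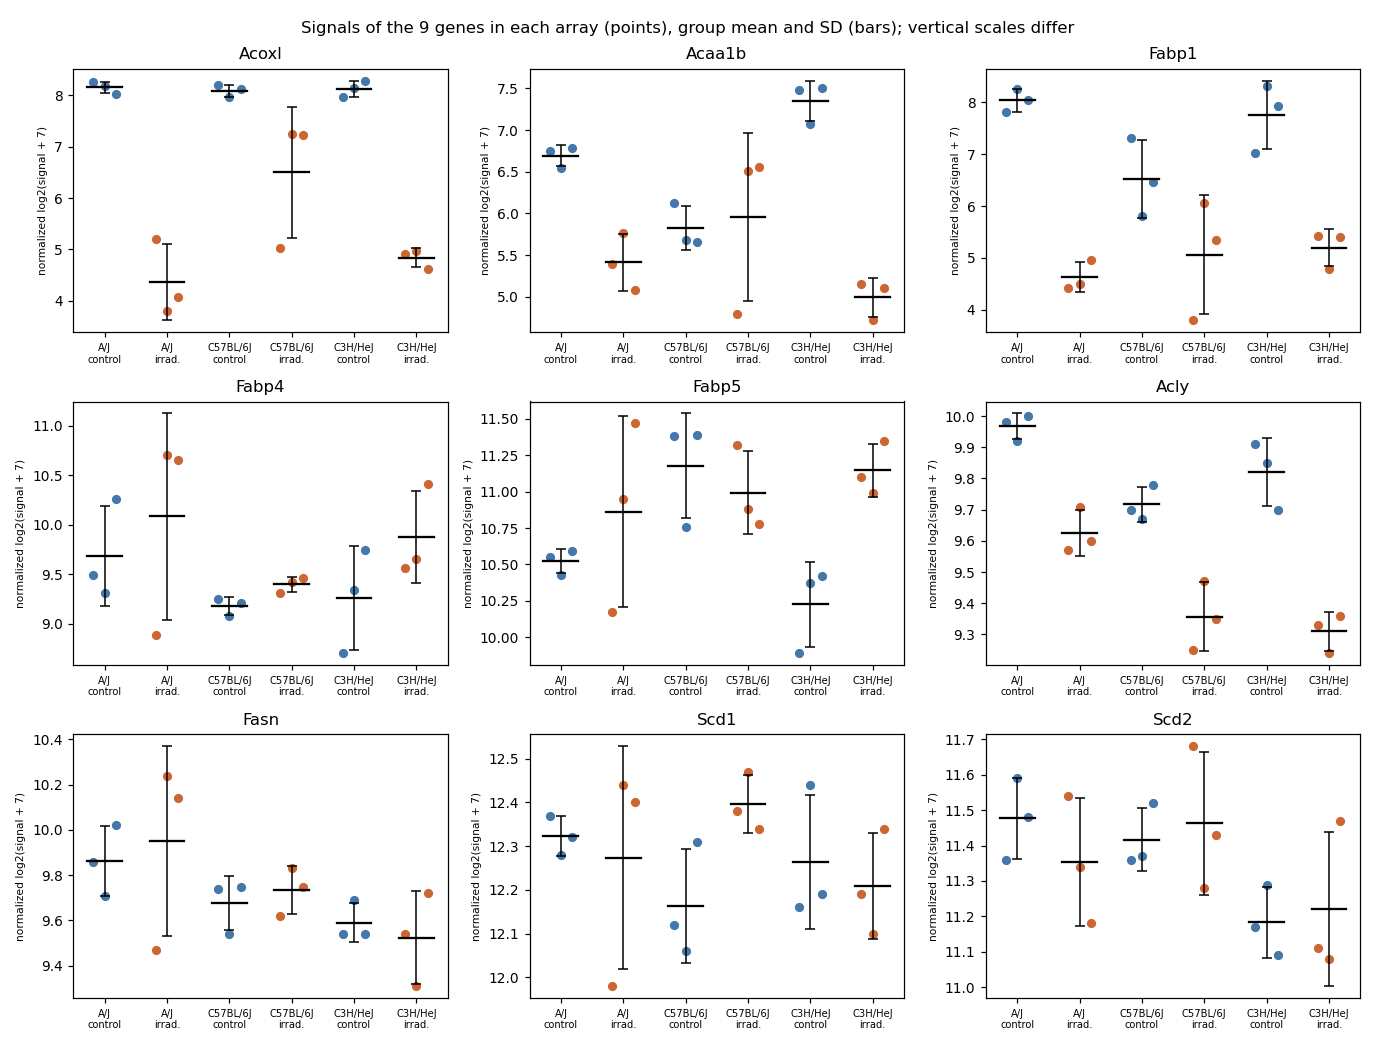
Normalized log2(signal + 7) of the 9 genes (1 panel each) in each array, by strain, for the probe set that stands for the gene; blue points are control arrays and orange points irradiated arrays, 3 per group, with bars for the group mean and SD. Acoxl was lower in all irradiated arrays, at 3.81 to 7.24 against 7.96 to 8.28 in controls, while Scd1 stayed between 11.98 and 12.47.

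Acoxl, the oxidase-like gene, was lower in every irradiated array than in every control of its strain. Probe set 1460470_at read 8.25, 8.17 and 8.03 in A/J controls, 8.19, 7.96 and 8.11 in C57BL/6J controls and 7.96, 8.13 and 8.28 in C3H/HeJ controls. It read 5.21, 3.81 and 4.08 in irradiated A/J, 5.02, 7.24 and 7.23 in irradiated C57BL/6J and 4.91, 4.98 and 4.63 in irradiated C3H/HeJ. The controls of the 3 strains overlapped, and irradiated C57BL/6J arrays 2 and 3 lay nearest to them. The differences, each ± 0.45, were −3.78 in A/J (13.8-fold), −3.28 in C3H/HeJ (9.75-fold) and −1.59 in C57BL/6J (3.01-fold). The deposited signals were 49.9, 8.7 and 8.6 in irradiated A/J against 237.7 to 299 in the controls, so that the pseudocount of 7 holds the fold down there.

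Acaa1b, a peroxisomal thiolase, was lower after irradiation in A/J and C3H/HeJ, while its C57BL/6J arrays overlapped. Probe set 1424451_at is the only one that names Acaa1b alone, so no other probe set stands behind these values. It read 6.75, 6.55 and 6.78 in A/J controls and 5.40, 5.76 and 5.08 in irradiated A/J. In C3H/HeJ it read 7.48, 7.07 and 7.50 and then 5.15, 4.72 and 5.11. In C57BL/6J it read 6.13, 5.68 and 5.66 in controls and 4.79, 6.51 and 6.56 in irradiated arrays. Groups were apart in A/J and C3H/HeJ, and in C57BL/6J the irradiated arrays lay on both sides of the controls. The differences, each ± 0.34, were −1.28 in A/J (2.43-fold), −2.35 in C3H/HeJ (5.12-fold) and 0.13 in C57BL/6J. Without irradiated C3H/HeJ array 3 the C3H/HeJ differences were −3.18 for Acoxl, −2.41 for Acaa1b and −2.65 for Fabp1. Without the 3 arrays of high squamous signal the A/J differences were −3.64, −1.11 and −3.58, so those of A/J and C3H/HeJ stayed of like size.

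Irradiated C57BL/6J array 1 held the lowest value of its group for Acoxl, Acaa1b and Fabp1 alike. Without it the C57BL/6J differences were −0.85 ± 0.28 for Acoxl, 0.71 ± 0.21 for Acaa1b and −0.83 ± 0.41 for Fabp1. That array also had the lowest mean over the lung endothelium genes of its group (8.08, against 8.80 and 8.69) and the highest over the alveolar macrophage genes (8.57, against 7.85 and 7.38). The part of these in the result was not tested.

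The differences of these 3 genes were of unequal size between strains. For Acoxl the C57BL/6J effect was smaller than that in A/J by 2.19 ± 0.63 and than that in C3H/HeJ by 1.69 ± 0.63, while C3H/HeJ and A/J differed by 0.50 ± 0.63, less than its error. For Acaa1b the C57BL/6J effect was 1.41 ± 0.49 above that in A/J and 2.48 ± 0.49 above that in C3H/HeJ, and the C3H/HeJ effect lay below that in A/J (−1.08 ± 0.49). For Fabp1 these were 1.95 ± 0.67, 1.09 ± 0.67 and, for C3H/HeJ minus A/J, 0.86 ± 0.67. Control means of Fabp1 were 7.75 in C3H/HeJ, 8.04 in A/J and 6.53 in C57BL/6J. After irradiation they were 5.20, 4.63 and 5.06, near the overall median of 4.98. Those of Acaa1b were 7.35, 6.69 and 5.82 in controls and 4.99, 5.41 and 5.95 after irradiation. For Acoxl the control means were alike, at 8.12, 8.15 and 8.09. The part of the untreated level in the unequal effects was not tested. The differences of effects share arrays with the contrasts that chose the genes and are given with no test.

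Acly, which makes the acetyl-CoA from which fatty acids are built, was lower by a small and even amount in all 3 strains. Probe set 1451666_at read 9.98, 9.92 and 10.00 in A/J controls and 9.57, 9.71 and 9.60 in irradiated A/J. It read 9.70, 9.67 and 9.78 in C57BL/6J controls and 9.25, 9.47 and 9.35 after irradiation, and in C3H/HeJ 9.91, 9.85 and 9.70 and then 9.33, 9.24 and 9.36. No irradiated array reached a control of its own strain. The differences, each ± 0.09, were −0.34 in A/J (1.27-fold), −0.36 in C57BL/6J (1.29-fold) and −0.51 in C3H/HeJ (1.42-fold). This direction depends on the scaling: without any scaling of the arrays the differences were 0.24, −0.30 and 0.23, where the median over all genes was itself 0.56, 0.06 and 0.61, so that Acly lay 0.31, 0.35 and 0.39 below the median gene. Of the other kept Acly probe sets, 1439459_x_at was lower in all 3 strains (−0.38, −0.23 and −0.32, each ± 0.13), and 1425326_at was lower with no overlap in A/J and C3H/HeJ.

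Fasn, the synthase, was not apart in any strain. Its only kept probe set, 1423828_at, read 9.71 to 10.02 in A/J controls and 9.47, 10.24 and 10.14 in irradiated A/J. In C57BL/6J it read 9.54 to 9.75 in controls and 9.62 to 9.83 in irradiated arrays, and in C3H/HeJ 9.54 to 9.69 and 9.31 to 9.72. The differences, each ± 0.17, were −0.06 in C3H/HeJ, 0.09 in A/J and 0.06 in C57BL/6J.

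The desaturases gave different values by probe set, and the probe sets that stand for the genes differed least between irradiated and control arrays. Scd1 probe set 1415964_at read 12.28 to 12.37 in A/J controls and 11.98, 12.44 and 12.40 in irradiated A/J, and its differences, each ± 0.13, were −0.05 in A/J and in C3H/HeJ and 0.23 in C57BL/6J, where the arrays were apart by a narrow gap (12.06 to 12.31 in controls and 12.34 to 12.47 after irradiation). Scd2 probe set 1415822_at gave −0.12 in A/J, 0.04 in C3H/HeJ and 0.05 in C57BL/6J, each ± 0.13, with overlap. The mean levels of these probe sets, 12.27 and 11.35, lay at percentiles 99.8 and 99.0 of all genes. Without scaling, Scd1, Scd2 and Fasn were at 0.36 to 0.73 in A/J and C3H/HeJ, so that their direction there depends on the scaling. Relative to the median gene these values were −0.26 to 0.12.

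A further probe set of each desaturase was lower in irradiated A/J. Scd2 probe set 1415824_at read 10.03, 9.95 and 9.65 in A/J controls (deposited signal 735.2 to 1014.1) and 6.28, 7.82 and 8.06 in irradiated A/J (137 to 339.8). Every irradiated A/J array lay below every A/J control by a wide gap, a difference of −2.49 ± 0.32. The same probe set gave −0.46 ± 0.32 in C3H/HeJ, which became 0.20 without scaling, and 0.22 ± 0.32 in C57BL/6J. Scd1 probe set 1415965_at read 9.15, 9.04 and 8.84 in A/J controls and 6.78, 7.55 and 8.16 in irradiated A/J, a difference of −1.51 ± 0.30, against 0.72 ± 0.30 in C57BL/6J and −0.41 ± 0.30 in C3H/HeJ. The Scd1 value in C3H/HeJ became 0.30 without scaling, while those of these 2 probe sets in A/J stayed below 0, at −1.94 and −0.96. Scd2 probe set 1415823_at gave −0.58 ± 0.17 in A/J with no overlap, but −0.21 with median centring and 0.02 without scaling. The probe sets of a gene therefore disagreed in A/J, and the irradiated A/J arrays were also those with the low 5′ to 3′ actin ratio. Irradiated A/J array 1, with the lowest actin and Gapdh ratios, was also the lowest at 1415824_at (6.28) and 1415965_at (6.78). The part of these ratios in the result was not tested.

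**Figure D2:**
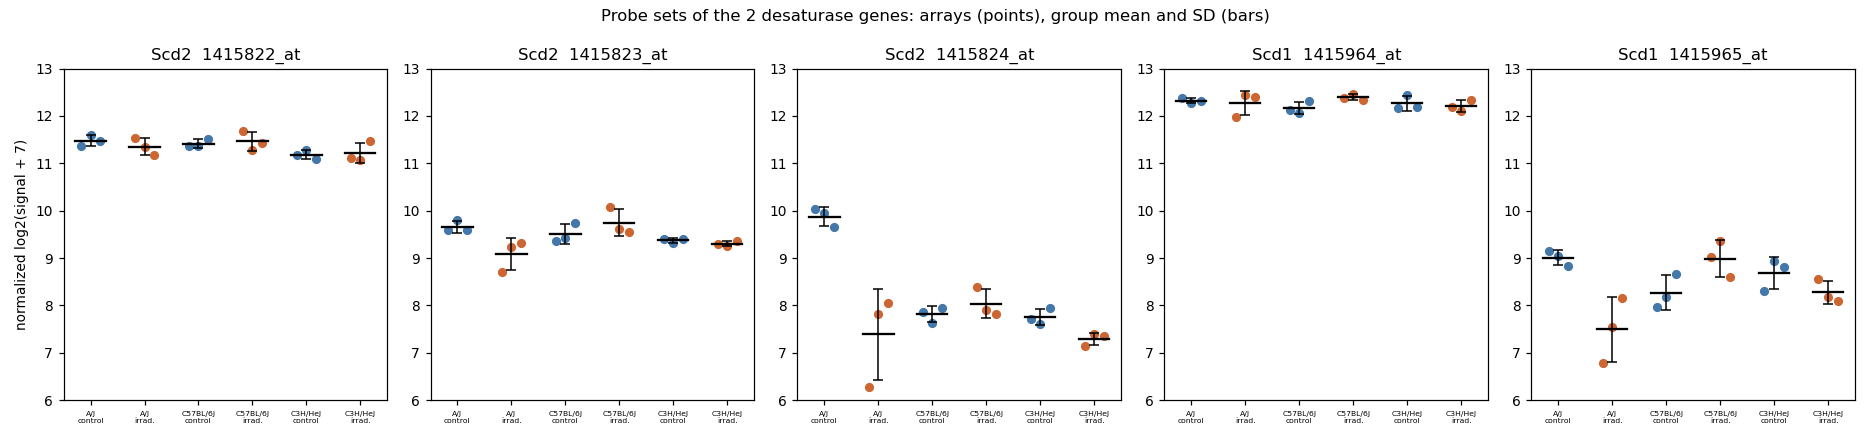
Normalized log2(signal + 7) of each kept probe set of Scd1 and Scd2 in each array, by strain; blue points are control arrays and orange points irradiated arrays, 3 per group, with bars for the group mean and SD. Scd2 probe set 1415824_at stood at 9.65 to 10.03 in A/J controls and 7.61 to 7.95 in the controls of the other strains.

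**Figure D3:**
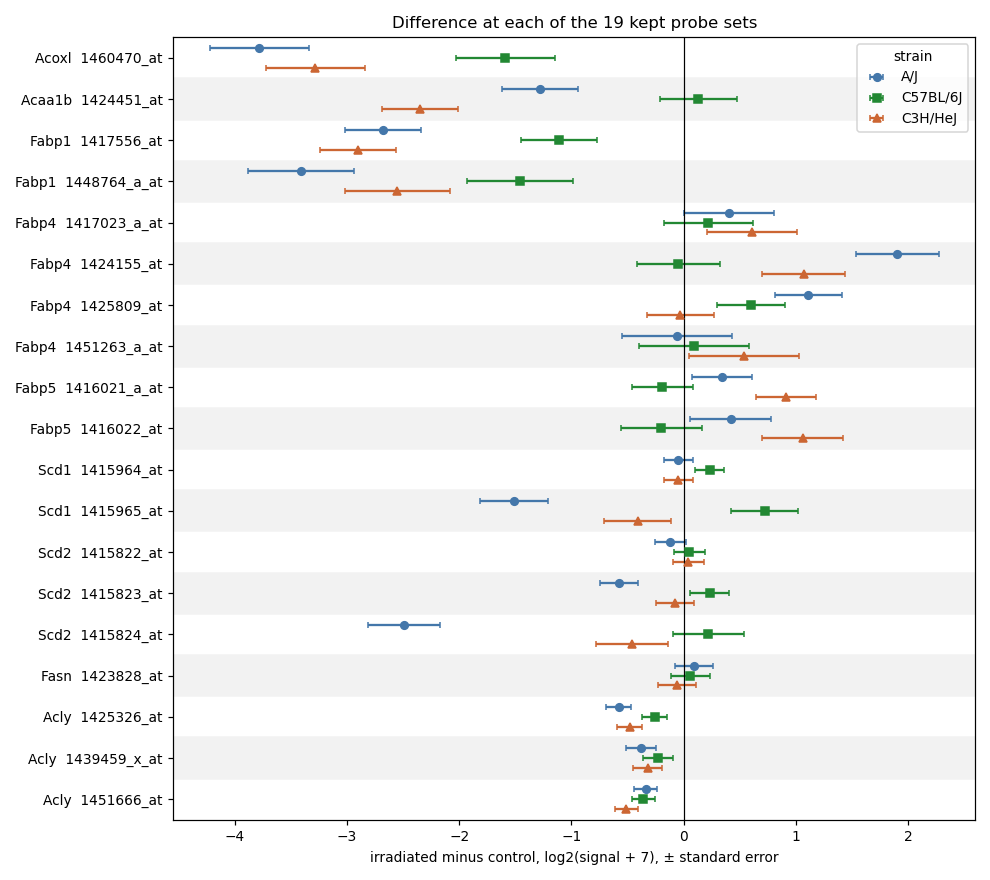
Difference between irradiated and control arrays (log2, bars ± SE) for each of the 19 kept probe sets, with blue circles for A/J, green squares for C57BL/6J and orange triangles for C3H/HeJ. Acoxl and both Fabp1 probe sets lay below 0 in all 3 strains, and the probe sets of Fabp4, Scd1 and Scd2 were spread to both sides of 0.

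Irradiated and control arrays did not overlap for 4 of the 9 genes in A/J (40.4% of all genes), for 5 in C3H/HeJ (40.3%) and for 4 in C57BL/6J (24.3%). These contrasts chose the genes, so nothing is read from the counts. The median difference over the 9 genes was −0.12 in A/J (0.09 over all genes), 0.05 in C57BL/6J (−0.01) and −0.06 in C3H/HeJ (0.01).

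Differences between untreated strains were not used to choose the genes and were tested. The 3 pairs of strains share their control arrays. These arrays also entered the irradiation contrasts that chose the genes, so the p-values are not independent of that choice. At the level of genes, 2 of the 9 were called, both between C57BL/6J and C3H/HeJ, where 10.8% of all genes were called. Untreated C57BL/6J had less Acaa1b than untreated C3H/HeJ (5.66 to 6.13 against 7.07 to 7.50, a difference of −1.52 ± 0.34, 2.87-fold, limma adjusted p = 0.00923). It had more Fabp5 (10.76 to 11.39 against 9.89 to 10.42, 0.95 ± 0.27, 1.93-fold, limma adjusted p = 0.0305). Neither pair of groups overlapped. Leaving out the 3 arrays of high squamous signal leaves C57BL/6J control array 2 alone in its group. The differences were then −1.67 for Acaa1b and 0.53 for Fabp5, and no call is read from that fit. Over all alternatives the limma adjusted p went as low as 0.00157 for Acaa1b and 0.00965 for Fabp5. Without C57BL/6J control 3 the limma adjusted p for Acaa1b was 0.0371. The Fabp5 call was lost without C57BL/6J control 1 (0.111) or 3 (0.105), without C3H/HeJ control 1 (0.133) or 2 (0.0503) and without the low-signal filter (0.0525).

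Between untreated C57BL/6J and A/J limma called 0 of the 9 genes, with 4 at an unadjusted p under 0.05, against 10.4% of all genes called. Between C3H/HeJ and A/J it called 0, with 1 at an unadjusted p under 0.05, against 4.5%. Fabp1 stood nearest to a call, at −1.51 ± 0.48 in C57BL/6J against A/J with adjusted p = 0.0548, and its adjusted p ran from 0.000184 without scaling to 0.192 without C57BL/6J control 2. Acoxl differed by −0.06, −0.03 and −0.04 between the untreated strains (C57BL/6J minus A/J, C3H/HeJ minus A/J and C57BL/6J minus C3H/HeJ), less than its SE of 0.45.

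Probe set by probe set, 2 of the 19 were called between untreated C57BL/6J and A/J (10.1% of all probe sets), 1 between C3H/HeJ and A/J (4.37%) and 3 between C57BL/6J and C3H/HeJ (10.1%). Scd2 probe set 1415824_at was 4.17-fold lower in untreated C57BL/6J than in A/J (−2.06 ± 0.32, limma adjusted p = 0.000443) and 4.35-fold lower in C3H/HeJ than in A/J (−2.12 ± 0.32, limma adjusted p = 0.000757). The untreated A/J arrays stood alone at 9.65 to 10.03, while C57BL/6J and C3H/HeJ controls covered 7.61 to 7.95. Both calls held in the main fit, without scaling, with median centring and with a pseudocount of 32. No call of untreated C57BL/6J probe sets is read without the squamous arrays, where control array 2 stands alone. The second call also held there. Limma adjusted p went as low as 1.06e-07 for the first call and ran from 1.03e-09 to 0.00124 for the second. Single arrays were not left out for probe sets. The other Scd2 probe sets were not called in these pairs. Fabp1 probe set 1417556_at was lower in untreated C57BL/6J than in C3H/HeJ (−1.21 ± 0.34, limma adjusted p = 0.0322). This call was lost without scaling (0.132) and with median centring (0.0554). Acly probe set 1425326_at was lower in untreated C57BL/6J than in A/J (−0.36 ± 0.11, limma adjusted p = 0.0416). That call was also lost without scaling (0.761) and with median centring (0.107).

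Over the 18 arrays the 9 genes varied unequally. The SD was 1.66 for Acoxl, 1.44 for Fabp1 and 0.87 for Acaa1b, against 0.56 for Fabp4, 0.45 for Fabp5, 0.25 for Acly, 0.23 for Fasn, 0.17 for Scd2 and 0.14 for Scd1. Likeness of patterns was measured as the root mean square difference between gene-centred log2 profiles over all 18 arrays, which share their scaling. Scd1 and Fasn were nearest among the pairs at 0.16, which their small variation allows. Acoxl and Fabp1 were at 0.90, as were Acaa1b and Fabp1, and Acoxl and Fabp4 were farthest at 2.02.

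Outside the 9 genes, the patterns nearest to Acoxl were those of Hpgd (0.51), which inactivates prostaglandins, Tmem100 (0.60), a membrane protein of lung endothelium, and Rnf144a (0.68). Nearest to Fabp1 were Hpcal4 (0.62), Rnf144a (0.66) and Gm33248 (0.67). The amino acid transporter gene Slc7a10 (0.45), Colgalt2 (0.47) and Sema3g (0.48) were nearest to Acaa1b. Fabp5 lay nearest to Fermt3 (0.22) and Plek (0.25), both genes of blood cells, and Cmc1 (0.27). Fabp4 lay nearest to Prss23 (0.30), Tc2n (0.33) and Mpg (0.33). Fasn lay nearest to Pnpla2, the lipase of stored fat (0.14), Dram1 (0.14) and Oat (0.16). Scd1, Scd2 and Acly, which varied little, had nearest genes at 0.11 to 0.12.

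Markers of other cell types were read in the same arrays. Of all genes, limma called 23.5% for irradiation within C3H/HeJ, 24.1% within A/J and 5.35% within C57BL/6J. The counts below were not tested against these shares, and a few calls in a short list do not show loss of a cell type. Of 10 endothelial genes, 1 was called higher and 5 lower in A/J, 0 and 3 in C57BL/6J and 0 and 6 in C3H/HeJ, and their median differences were −0.96, −0.40 and −0.86. Their summed normalized signal was 9406 to 10155 in A/J controls and 4991 to 6971 in irradiated A/J, 6246 to 6569 and 3631 to 5732 in C57BL/6J, and 10509 to 11412 and 5215 to 5659 in C3H/HeJ. Of 8 alveolar macrophage genes, 5 were called higher and 1 lower in A/J, 0 and 0 in C57BL/6J and 3 and 1 in C3H/HeJ. Their summed signal was 2140 to 2324 in A/J controls and 2326 to 6010 in irradiated A/J, 4224 to 4412 and 4069 to 8368 in C57BL/6J, and 3175 to 3661 and 4310 to 5694 in C3H/HeJ. Of 11 alveolar type 2 genes, 2 were called lower in A/J, 5 in C3H/HeJ and 0 in C57BL/6J, with 0 higher. Of 5 white adipocyte genes, 2 were called lower in C3H/HeJ, where Fabp4 stood at 0.61 ± 0.40, and 0 in the other strains. Where limma called 0, the genes at an unadjusted p under 0.05 numbered 5 (macrophage) and 1 (type 2) in C57BL/6J, and for adipocytes 1 in A/J and 0 in C57BL/6J. Of 5 brown adipocyte genes, 0 were called in A/J (2 at an unadjusted p under 0.05), 1 was lower in C57BL/6J, and 1 was higher and 2 lower in C3H/HeJ, where their median difference was −0.94 and their summed signal 327 to 624 in controls and 146 to 223 in irradiated arrays. Of 5 club cell genes, 1 was called lower in A/J, 3 in C3H/HeJ and 0 in C57BL/6J (2 at an unadjusted p under 0.05). The 7 skeletal muscle genes tested had 0 calls in each strain (3 at an unadjusted p under 0.05 in C57BL/6J and 0 in the others). Over the 8 measured, the summed signal was 2453 to 2666 in the 3 arrays of high squamous signal and 123 to 627 elsewhere. The part of these markers in the differences of Acoxl, Acaa1b, Fabp1 and Fabp5, and in those of Fabp3, Thrsp and Ppargc1a given next, was not tested. In bulk tissue, fewer cells of a type and less RNA per cell cannot be told apart.

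**Figure D4:**
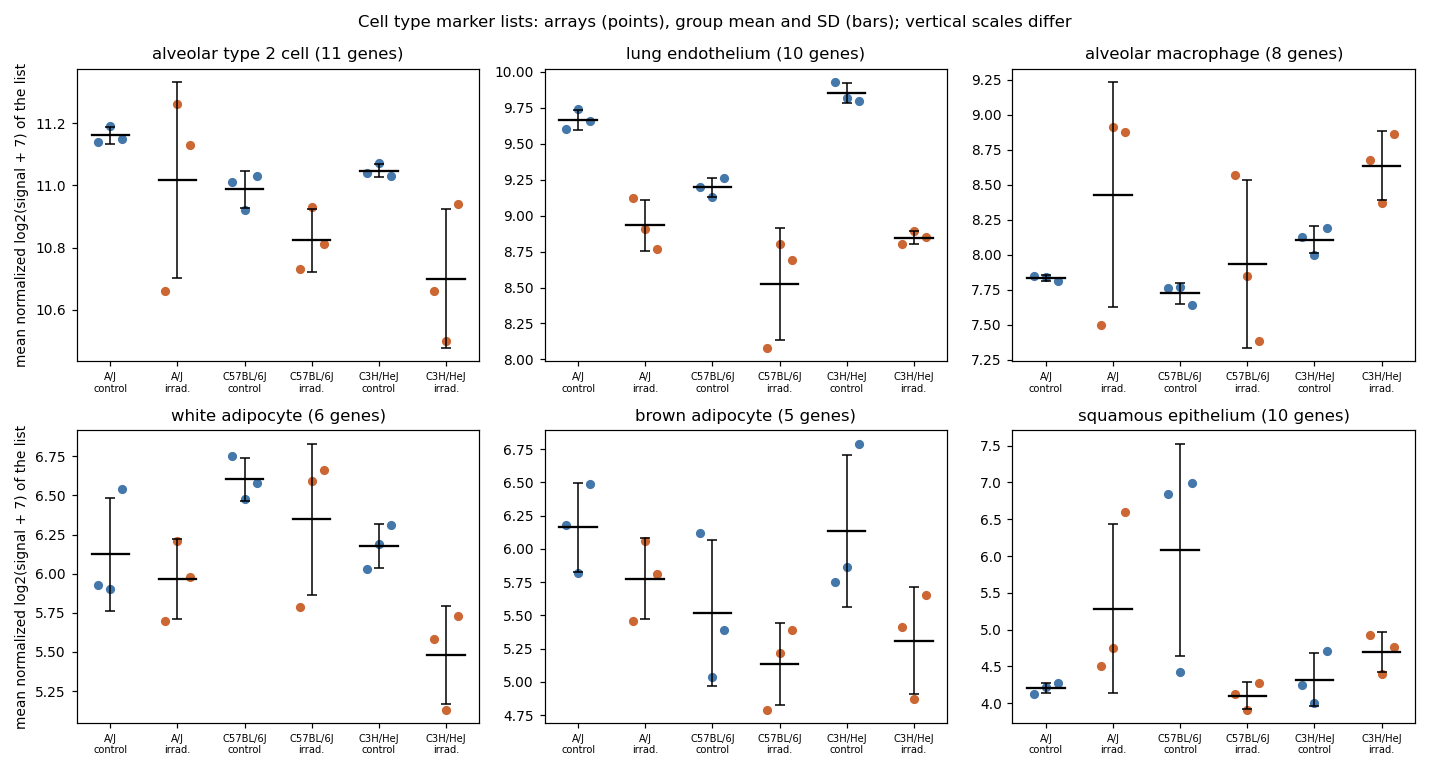
Mean normalized log2(signal + 7) over the measured genes of each cell type list in each array, by strain; blue points are control arrays and orange points irradiated arrays, 3 per group, with bars for the group mean and SD. The squamous list stood apart at 6.84 and 6.99 in C57BL/6J control arrays 1 and 3 and at 6.60 in irradiated A/J array 3.

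The rest of the pathway was read through 6 lists with 109 genes, none of them among the 9, of which 93 were tested. In A/J 16 were called higher and 8 lower (25.8%, against 24.1% of all genes), in C57BL/6J 2 and 1 (3.23%, against 5.35%) and in C3H/HeJ 6 and 19 (26.9%, against 23.5%). The median difference was 0.04, 0 and −0.02, against 0.09, −0.01 and 0.01 over all genes. Without scaling the split was 18 and 2, 1 and 0, and 21 and 1, and with median centring 38 and 3, 2 and 0, and 20 and 5. The balance of higher and lower calls in A/J and C3H/HeJ therefore turns on the scaling. The effect differed between C57BL/6J and A/J for 4 of the 93 (5.45% of all genes were called), between C57BL/6J and C3H/HeJ for 2 (1.6%) and between C3H/HeJ and A/J for 0 by limma (1.06%), with 16 at an unadjusted p under 0.05.

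Of 11 genes of uptake, binding and activation, 1 rose and 1 fell in A/J and 3 fell in C3H/HeJ. Cd36, the fatty acid translocase of capillary endothelium and macrophages, read 11.87, 11.90 and 11.77 in A/J controls and 10.54, 10.23 and 10.30 in irradiated A/J. It read 11.86 to 11.91 in C3H/HeJ controls and 10.88, 10.94 and 10.57 after irradiation, and 11.45 to 11.59 and then 11.23 to 11.27 in C57BL/6J. Cd36 was thus lower in every irradiated array, with a change of −1.49 ± 0.11 in A/J (limma adjusted p = 4.58e-07) and −1.08 ± 0.11 in C3H/HeJ (9.08e-06), and −0.28 ± 0.11 in C57BL/6J, which was not called (adjusted p = 0.147). Over 17 alternative settings of the processing its A/J call was always kept, at −1.58 to −0.95, and the C3H/HeJ call was lost without scaling, at −0.42. Lpl, lipoprotein lipase, rose in A/J (0.73 ± 0.20, adjusted p = 0.0156, held in 10 of 17 settings) with overlapping arrays. Fabp3, the heart form of the binding proteins, fell in C3H/HeJ (−1.09 ± 0.27, adjusted p = 0.00810), and so did Acsl5, an acyl-CoA synthetase (−0.36 ± 0.09, adjusted p = 0.00689), which reached 0.40 under another scaling. The Fabp3 call was lost without scaling and without the 3 squamous arrays and irradiated C3H/HeJ array 3 together, with values up to −0.41 and adjusted p up to 0.321. The endothelial list above had a negative median difference in each strain. Over irradiated C57BL/6J arrays its mean level ran from 8.08 to 8.80, while Cd36 stayed at 11.23 to 11.27. Whether Cd36 followed the endothelial genes from array to array was not tested. In C57BL/6J limma called 0 of the 11, with 3 at an unadjusted p under 0.05.

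The 18 peroxisomal genes held 2 higher and 1 lower call in A/J, 0 in C57BL/6J (4 at an unadjusted p under 0.05) and 1 higher and 2 lower in C3H/HeJ. Eci2, an enoyl-CoA isomerase, rose in A/J (0.54 ± 0.11, adjusted p = 0.00203) and in C3H/HeJ (0.45 ± 0.11, adjusted p = 0.00708), in all 17 settings. Acot8, a peroxisomal thioesterase, fell in A/J (−0.67 ± 0.18, adjusted p = 0.0154, held in 12 of 17 settings). Pecr, a trans-2-enoyl-CoA reductase, rose in A/J (0.43 ± 0.14, adjusted p = 0.0378, held in 6 of 17 settings). The transporter gene Abcd3 (−0.43 ± 0.10, adjusted p = 0.00442) and Ech1 (−0.39 ± 0.12, adjusted p = 0.0322) fell in C3H/HeJ, and reached 0.32 and 0.36 under another scaling.

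Of the 17 mitochondrial genes, 1 rose and 2 fell in A/J, 0 were called in C57BL/6J (3 at an unadjusted p under 0.05) and 4 fell in C3H/HeJ. Acadm, the medium-chain dehydrogenase, fell in C3H/HeJ (−0.63 ± 0.10, adjusted p = 0.000519) and so did Hadh (−0.71 ± 0.13, adjusted p = 0.000900), but other scalings brought these to as high as 0.10 and 0.02. Echs1, a hydratase, fell in A/J (−0.42 ± 0.12, adjusted p = 0.0173) and in C3H/HeJ (−0.41 ± 0.12, adjusted p = 0.0201), and reached 0.16 and 0.30 under another scaling. Cpt2, the inner carnitine palmitoyltransferase, rose in A/J (0.50 ± 0.15, adjusted p = 0.0233, held in 12 of 17 settings). Acadm also fell in A/J (−0.31 ± 0.10, limma adjusted p = 0.0435, held in 6 of 17 settings, with values up to 0.28). Eci1 fell in C3H/HeJ (−0.42 ± 0.12, limma adjusted p = 0.0228, held in 11 of 17 settings, with values up to 0.26).

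Of the 19 genes of synthesis, elongation and desaturation, 3 rose and 2 fell in A/J, 0 and 1 in C57BL/6J and 1 and 6 in C3H/HeJ. Acss2, which makes acetyl-CoA from acetate, fell in all 3 strains, at −0.69 ± 0.14 in A/J (adjusted p = 0.00193), −0.52 ± 0.14 in C57BL/6J (adjusted p = 0.0384) and −0.57 ± 0.14 in C3H/HeJ (adjusted p = 0.00739). Its C57BL/6J call held in 5 of 17 settings, and another scaling brought the C3H/HeJ value to 0.07. The A/J call was lost without scaling and with median centring, with values up to −0.18 and adjusted p up to 0.680. Fads3, of the fatty acid desaturase family, rose in A/J (0.66 ± 0.15, adjusted p = 0.00434). Hacd3, a dehydratase of chain elongation, fell in C3H/HeJ (−0.82 ± 0.10, adjusted p = 5.76e-05), a call lost without scaling (−0.07, adjusted p = 0.865) and held in the other 16 of 17 settings. Acaca, the acetyl-CoA carboxylase that feeds Fasn, fell in A/J (−0.51 ± 0.13, adjusted p = 0.0119) and reached 0.02 under another scaling. In C3H/HeJ, Thrsp, a lipogenic gene of adipocytes, had the largest fall of the lists (−1.53 ± 0.50, adjusted p = 0.0386, held in 10 of 17 settings), with overlapping arrays. Acacb also fell in C3H/HeJ with overlapping arrays (−0.64 ± 0.21, limma adjusted p = 0.0391, held in 8 of 17 settings). Elovl7 rose in A/J (0.58 ± 0.19, limma adjusted p = 0.0348, held in 7 of 17 settings).

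Of 13 genes of glycerolipid assembly, storage and lipolysis, 4 rose in A/J, 1 rose in C57BL/6J, and 1 rose and 1 fell in C3H/HeJ. Plin2, the coat protein of lipid droplets, rose in all 3 strains. It read 9.75, 9.65 and 9.86 in A/J controls and 10.23, 10.68 and 10.42 in irradiated A/J. In C57BL/6J it read 9.38, 9.32 and 9.13 and then 10.07, 10.03 and 9.75, and in C3H/HeJ 9.74, 9.57 and 9.91 and then 10.37, 10.47 and 10.35. No arrays overlapped. The rises were 0.69 ± 0.13 (adjusted p = 0.00145), 0.67 ± 0.13 (adjusted p = 0.00861) and 0.66 ± 0.13 (adjusted p = 0.00209), and the C57BL/6J call held in 12 of 17 settings. Lpin2 was called higher in A/J by the probe set that stands for it (0.50, adjusted p = 0.00823), while 3 other probe sets of it were called lower (−0.86, −0.60 and −0.82). The lipase Mgll (0.49 ± 0.14, adjusted p = 0.0166) and the lipase activator Abhd5 (0.40 ± 0.12, adjusted p = 0.0253) rose in A/J, in 11 and 12 of 17 settings. Chpt1 fell in C3H/HeJ (−0.42 ± 0.12, limma adjusted p = 0.0219, held in 10 of 17 settings, with values up to 0.29).

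Of 15 regulators and their targets, 5 rose and 2 fell in A/J, 1 rose in C57BL/6J, and 3 rose and 3 fell in C3H/HeJ. Angptl4, a lipase inhibitor and PPAR target, rose in A/J (0.87 ± 0.29, adjusted p = 0.0401), C57BL/6J (1.18 ± 0.29, adjusted p = 0.0278) and C3H/HeJ (1.38 ± 0.29, adjusted p = 0.00302), in 9, 9 and 17 of 17 settings. Pdk4, a kinase that holds glucose back from oxidation, rose in A/J (1.11 ± 0.27, adjusted p = 0.00734) and C3H/HeJ (1.59 ± 0.27, adjusted p = 0.000610) and was at 0.80 ± 0.27 in C57BL/6J, where it was not called (adjusted p = 0.0955); its calls held in 16 and 17 of 17 settings. Ppargc1a, the coactivator of mitochondrial genes, fell in A/J (−1.24 ± 0.24, adjusted p = 0.00181) and C3H/HeJ (−0.96 ± 0.24, adjusted p = 0.00976) and was at 0.20 in C57BL/6J (adjusted p = 0.707). Its A/J call held in all 17 settings, and its C3H/HeJ call was lost without scaling and without irradiated C3H/HeJ array 1, with values up to −0.48 and adjusted p up to 0.249. The related gene Ppargc1b went the other way in C3H/HeJ, where it rose (0.77 ± 0.19, limma adjusted p = 0.00757) in 16 of 17 settings. Pparg, the nuclear receptor of adipocytes and alveolar macrophages, rose in A/J (0.91 ± 0.29, adjusted p = 0.0313), in 10 of 17 settings. The alveolar macrophage genes above had a median difference of 1.04, 0.48 and 0.82 in the 3 strains, and their part in the values of Plin2 and Pparg was not tested.

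**Figure D5:**
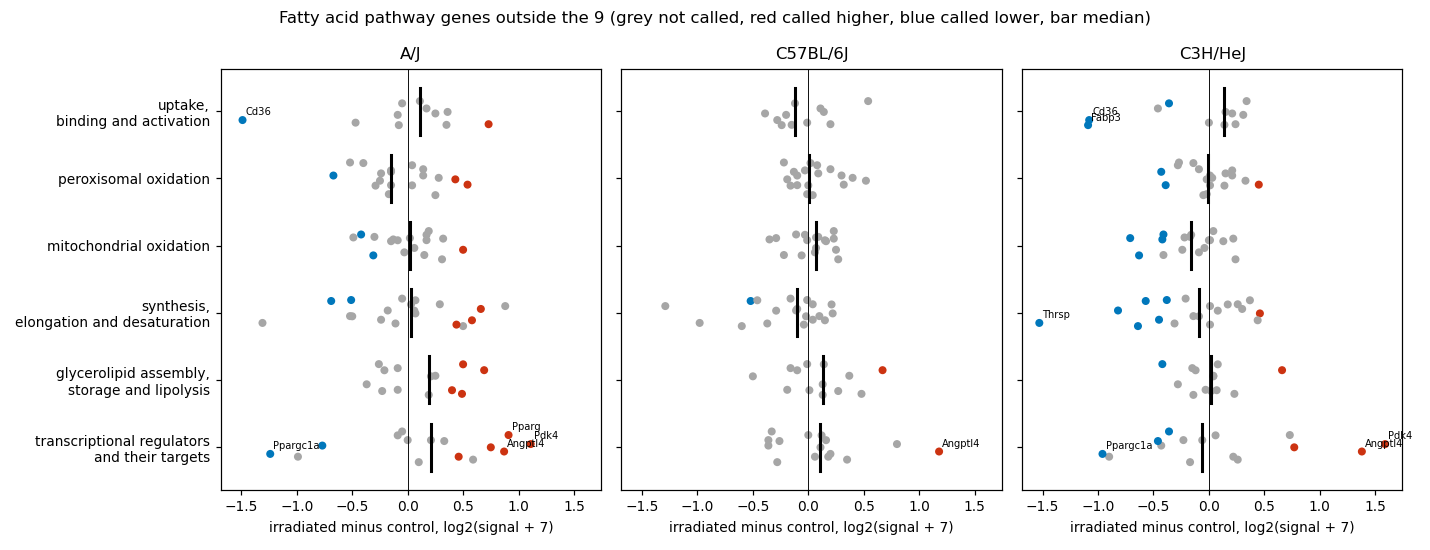
Difference between irradiated and control arrays (log2) for each tested gene of the 6 pathway lists, by strain, with genes called higher in red, called lower in blue, not called in grey, and the median of each list as a bar. Cd36 lay at −1.49 in A/J and −1.08 in C3H/HeJ, and Plin2 lay at 0.66 to 0.69 in the 3 strains.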

How the data were processed

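Right lung RNA of 18 samples was hybridized to single-colour oligonucleotide arrays, 3 for each of 6 groups taken from the titles. The deposited values are linear signal intensities of 45101 probe sets, made by the authors with MAS5 per the submitters' processing notes, which give no version. Scanner settings and background handling are not given in the sources used here. Here 64 control probe sets were dropped, intensities were taken as log2(signal + 7), which understates changes of dim genes, and quantile normalized, because brightness differed between arrays. A probe set was kept if above the overall median in at least 3 arrays (25746), and the kept probe set with the highest mean stands for a gene (12412 genes). Of the annotation rows, 34958 name 1 gene and 932 several, which were not used, and 9211 probe sets have no row and are unnamed here.

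limma 3.58.1 in R 4.3.3 was fitted to 6 group means on all 18 arrays (12 residual degrees of freedom), with two-sided tests and Benjamini-Hochberg adjustment over all genes, or over all kept probe sets where a probe set is named, at 0.05. Adjusted p-values below and above come from these fits, and errors are SE unless called SD. The fit was tested on simulated data. The number of arrays limits the precision. The genes and the gene lists were chosen with earlier results of these data known. Pathway genes are named by a rule that takes up to 4 called genes with the largest change per list and strain, and of each marker list the 2 brightest genes. Alternatives were no scaling, median centring, a pseudocount of 1 or 32, no filter or one of 6 arrays, the mean of a gene's probe sets, a replicate block, only the groups compared, and leaving out single arrays, 3 arrays with squamous genes, or these and irradiated C3H/HeJ array 3 (added after seeing the data). Leaving out the squamous arrays leaves control array 2 alone for untreated C57BL/6J, and the settings counted include these fits.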

Additional observations from a re-analysis of the deposited data

Results flagged for a closer look

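The effect of irradiation differed between strains, by limma's interaction term, for 5 genes of the pathway lists in 6 comparisons. These were 4 of 93 genes between C57BL/6J and A/J (4.3%, against 5.45% of all genes). Between C57BL/6J and C3H/HeJ they were 2 of 93 (2.15%, against 1.6%). Time since exposure also differed between the strains. The change in Cd36 was smaller in C57BL/6J than in A/J (difference of effects 1.21 ± 0.15, adjusted p = 0.000505) and smaller than in C3H/HeJ (0.80 ± 0.15, adjusted p = 0.0170). The first call held in 22 of 23 settings and was lost without scaling, with values down to 0.74 and adjusted p up to 0.488, and the second held in 19 of 23, with values down to 0.21 and adjusted p up to 0.766. Ppargc1a differed between C57BL/6J and A/J by 1.44 ± 0.34 (adjusted p = 0.0235), a call held in 16 of 23 settings with adjusted p up to 0.189.

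Acacb, the acetyl-CoA carboxylase of mitochondria, differed between C57BL/6J and A/J by −1.10 ± 0.30 (adjusted p = 0.0431, held in 10 of 23 settings, up to 0.318), and Fads3 between the same strains by −0.76 ± 0.21 (adjusted p = 0.0454, held in 4 of 23, up to 0.242). Hacd3 differed between C57BL/6J and C3H/HeJ by 0.71 ± 0.15 (adjusted p = 0.0251, held in 11 of 23, with values down to 0.03 and adjusted p up to 0.967).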

How the results depend on the processing

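Values were recomputed under each alternative; of the results that moved, the cause was not tested. Of the recomputed differences of the 9 genes, 850 kept their call or moved by less than the spread, 46 moved by more, 10 gained a call and 9 lost one. Of these values 44 changed sign, 28 of them differences between irradiated and control lung, namely 3 of Acly, those of Acaa1b and Fabp5 in C57BL/6J, and the rest of Scd1, Scd2 and Fasn, reported at −0.12 to 0.09. Acly turned to higher in irradiated lung without scaling (0.24 in A/J and 0.23 in C3H/HeJ) and with median centring in A/J (0.01). The pathway genes called for irradiation numbered 24 in A/J, 41 with median centring and 13 to 24 with 1 array left out, lowest without A/J control 2 (13) and irradiated A/J array 2 (15). In C57BL/6J they numbered 3, and 1 without scaling, 1 without the filter and 6 with the mean of probe sets. They numbered 0 with only the groups compared and 1 to 4 with 1 array left out. No count is given without the 3 squamous arrays, which leaves C57BL/6J control array 2 alone. In C3H/HeJ they numbered 25, and 17 to 23 with 1 array left out. With the replicate number as a block the counts were 23, 3 and 25. Deviations of same-numbered arrays correlated at −0.08 to 0.10 and those of differently numbered arrays at −0.12 to 0.10. No pairing by number was seen, though 3 arrays per group cannot exclude it.

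Of the 9 genes, the count called between untreated C57BL/6J and A/J was 0, and 1 without scaling, with a pseudocount of 32 or with the filter of 6 arrays, 2 with the mean of probe sets or only the groups compared, and 0 to 1 with 1 array left out. Between C3H/HeJ and A/J it was 0, and 1 with the mean of probe sets and 0 with any 1 array left out. Between C57BL/6J and C3H/HeJ it was 2, 1 without the filter and 1 to 2 with 1 array left out. No count without the squamous arrays is given for C57BL/6J, where control array 2 alone remains. Pathway genes whose effect differed between C57BL/6J and A/J numbered 4, and 0 without scaling and 8 with median centring. They numbered 2 with a pseudocount of 1, 2 without the filter and 1 to 5 with 1 array left out. Between C3H/HeJ and A/J limma called 0 (16 at an unadjusted p under 0.05), 3 with a pseudocount of 32, 1 with the filter of 6 arrays and 0 to 3 with 1 array left out. Between C57BL/6J and C3H/HeJ it called 2, 0 without scaling, 0 with median centring and 4 with a pseudocount of 32. It called 1 without the filter, 4 with the mean of probe sets and 1 to 3 with 1 array left out.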
